A study of Mus musculus with 6 samples.

Results

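IRF1 is a transcription factor that interferons induce, and it binds promoter elements built from repeats of the letters GAAA. Its best known targets in T cells and other cells are large families of interferon-inducible GTPases, antigen presentation genes and immunoproteasome subunits. The 77 genes described here are those whose RNA was at most 50% as high in Irf1-/- as in WT Th9 cells after the known interferon families and several immune families had been set aside by name, and a few relatives of those families with other names remain among them. Th9 cells are CD4+ T helper cells that make IL-9 when they are primed with IL-4 and TGF-β, and IFN-γ restrains that program.

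T cells from C57BL/6 mice aged 8 to 12 weeks were grown in 3 WT and 3 Irf1-/- cultures. The cells were isolated from spleen and lymph nodes by magnetic negative selection, and the study's methods name naive CD4+ T cells. In some experiments of the study such cells were also flow-sorted, but whether these were is not stated in the sources used here. All 6 cultures were stimulated through CD3 and CD28 for 2 days with IL-2, IL-4, TGF-β, an antibody to mouse IFN-γ and rat IFN-γ at 5 ng per ml, so that controls and knockouts shared every agent and no culture without IFN-γ entered the comparison. The WT mice were purchased and the Irf1-/- mice bred by the study, so that colony and genotype cannot be told apart. The study describes 3 independent biological samples, while the labels do not say which animals each culture came from.

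The genes were chosen by their values in these same 6 libraries. A member had a mean normalized count of at least 30 in WT cells, a ratio of the Irf1-/- to the WT mean of at most 0.5 after 1 was added to both, and no Irf1-/- value as high as any WT value. Normalized counts are reads per gene corrected for the depth of each library, and the percentages of WT below are this ratio. Of 41388 genes, 9804 reached the WT mean of 30, and 122 of these met all criteria, which is 1.24%. From the 122, 44 were dropped by name, among them Gbp, Ifi, Iigp, Parp, Psm, Trim, Ccr, Tnf and interleukin genes, and none lay on chromosome X or Y. A single gene without a symbol (ENSMUSG00000029333, at 45.6% of WT) was left out because the names could not be applied to it. Of the 77 members, 68 are protein coding and 9 are annotated as noncoding transcripts or pseudogenes. Because the values chose the genes, the differences between genotypes that follow are descriptions and carry no test.

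Promoter sequence was not used in the choice. The 6 stretches below, 1 per gene, are shown because these genes alone, among 51 members with a promoter window in RefSeq (GRCm38.p6, 250 bases before to 50 after the start), hold the letters GAAANNGAA, a repeat of the core that IRF proteins contact. Mndal holds a further match, not shown, before another of its starts. Each runs 5′ to 3′ along the gene, and capitals mark the match, which appears as its reverse complement where it lies on the opposite strand.
Serpinb9: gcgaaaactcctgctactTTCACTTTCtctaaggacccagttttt
Calhm6: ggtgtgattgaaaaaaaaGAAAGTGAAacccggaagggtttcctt
Mndal: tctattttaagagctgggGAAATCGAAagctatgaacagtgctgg
Cyp1a1: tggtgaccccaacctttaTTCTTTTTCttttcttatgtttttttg
Ccl1: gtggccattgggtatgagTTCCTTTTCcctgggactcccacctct
Serpina3f: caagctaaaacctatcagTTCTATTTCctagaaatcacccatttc
The stretches lie at chr13:33004478-33004522 (+) for Serpinb9, chr10:34128010-34128054 (-) for Calhm6, chr1:173880197-173880241 (-) for Mndal, chr9:57697394-57697438 (+) for Cyp1a1, chr11:82179877-82179921 (-) for Ccl1 and chr12:104214399-104214443 (+) for Serpina3f. Serpinb9 and Calhm6 share the same match, GAAAGTGAA, and are also among the 10 members with the lowest ratio. The match in Serpinb9 and that in Calhm6 lie on opposite strands relative to their genes.

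The libraries held between 5639788 and 13348230 reads on genes, and replicate 3 of each genotype was about as deep as replicates 1 and 2 together. Depending on the library, 3 reads were worth a normalized count of 1.84 to 4.16. In a principal component analysis the leading axis (60.0% of the variance) split the genotypes and the next (17.97%) split replicate 3 of both genotypes from the rest. Y-linked transcripts were abundant in WT replicates 1 and 2, whereas WT replicate 3 and all Irf1-/- libraries held Xist and at most 4.16 normalized counts of any of 4 Y-linked genes. Only WT replicate 3 therefore matched the Irf1-/- libraries in this respect, and the percentage against it is given for the 13 members in which it was over 1.5 times the percentage against the WT mean. No member moved as far the other way. Irf1 itself, on chromosome 11 from 53770014 to 53778374, had normalized counts of 2968, 2907 and 2660 in WT and of 1780, 1729 and 1476 in Irf1-/- cells. At 58.4% of WT, reads on the targeted gene did not pass the limit that chose the members, and the file does not show which part of the gene they covered.

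Over the 11379 genes that averaged at least 10 normalized counts, limma called 12.4% lower and 11.4% higher in Irf1-/- cells at an adjusted p below 0.05. Of the 77 members 76 were called lower, a count that the choice fixes almost entirely. The member not called was 2610507I01Rik, whose Irf1-/- values were 17.9, 2.77 and 28.1. Values without overlap, all lower in Irf1-/- cells, were found for 23.4% of the genes with a WT mean of at least 30. The median ratio of the members was 37.2%, and 3 members were at or below 10% of WT, 11 between 10% and 20%, 13 between 20% and 30%, 19 between 30% and 40% and 31 between 40% and 50%. Most members were of low to moderate level: 40 had a WT mean under 100, and only Ccng1, Ly75, Serpine2 and Zmat3 had one of 1069 or more.

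**Figure D1:**
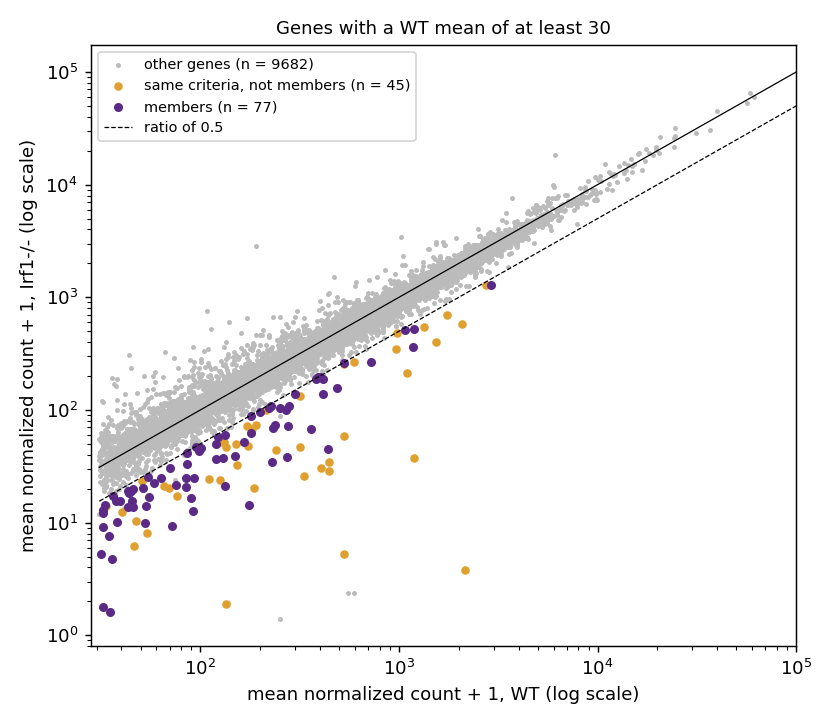
Mean normalized count plus 1 in Irf1-/- cells (vertical) against WT cells (horizontal), both on log scales, for the 9804 genes with a WT mean of at least 30. Solid and dashed lines mark equal means and a ratio of 0.5. The 77 members (purple) and 45 other genes that met the same criteria (orange) lie under the dashed line, the members spread over WT means from 30.7 to 2921. The grey points far below the line are the Y-linked genes Uty, Kdm5d, Eif2s3y and Ddx3y, with 192 or more normalized counts in WT replicates 1 and 2 and at most 4.16 in the other libraries.

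At the limit, the members just inside were Mpeg1 at 49.5%, Lgals3bp at 49.6% and Gng12 at 49.98% of WT. Just outside were A630072M18Rik at 50.1%, Grk5 at 50.6% and Irf2 at 50.8%. The limit lies within a continuous range, and Irf2, an IRF family member that competes with IRF1 for the same DNA elements, missed it narrowly. Its normalized counts were 411, 434 and 393 in WT and 170, 216 and 242 in Irf1-/- cells. Outside the dropped chromosomes and names, a further 5 genes with a symbol met the mean and the ratio but had overlapping values, namely Phlda3, Scand1, Cd40, Cpt1c and Dmxl2.

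The members with the lowest ratios included close relatives of the families that had been set aside. Gm5970 is a pseudogene and F830016B08Rik a gene for an interferon-inducible GTPase, 71.3 kb apart on chromosome 18. The span of Gm5970 overlaps that of the dropped GTPase gene Gm4951, and F830016B08Rik lies 45.6 kb from Gm4951. Gm5970 had normalized counts of 31.2, 34.9 and 35.7 in WT and of 1.19, 0 and 0.639 in Irf1-/- cells. F830016B08Rik had 29.95, 30.05 and 34.4 in WT and 2.39, 0 and 0 in Irf1-/- cells. Both were near absent without IRF1, with a total of 2 reads each in the 3 Irf1-/- libraries against 112 and 105 reads in WT. Scaled for depth, this is 1.86% of WT for Gm5970 (exact 95% interval 0.223 to 6.89, counting error only) and 1.99% for F830016B08Rik (0.238 to 7.36). Because the GTPase genes of this cluster resemble each other, the split of reads among them is uncertain.

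A group of 12 genes connected with interferon responses or innate immunity remained among the members and, like the role groups that follow, was put together after the values were seen. The group ranged from 4.62% to 49.6% of WT. Mlkl, the pore-forming executor of necroptosis, had 82.4, 79.3 and 110.0 normalized counts in WT and 14.3, 12.5 and 8.31 in Irf1-/- cells. Gsdmd, which encodes the pore-forming protein of pyroptosis, had 42.4, 39.7 and 51.6 against 17.9, 11.1 and 8.95. Both death effectors were lower in every Irf1-/- library than in any WT library, as the choice requires, at 13.9% and 29.9% of WT. Zbp1, a sensor of Z-form nucleic acid that acts upstream of necroptosis, had 77.4, 96.2 and 118 in WT and 28.7, 38.8 and 58.8 in Irf1-/- cells. In both genotypes its highest value was that of replicate 3, and the ratio was 50.2% in the larger libraries and 39.6% in the smaller ones. Ripk3, the kinase that activates MLKL, is no member and moved the other way, to 151% of WT (log2 fold change 0.60 with a standard error of 0.10, limma, adjusted p = 0.00226, n = 3 per genotype).

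Sp140, a nuclear body protein of immune cells, had 131, 141 and 127 normalized counts in WT and 57.3, 63.8 and 55.6 in Irf1-/- cells. Lgals3bp, a secreted glycoprotein that binds galectins, had 482, 523 and 571 against 248, 276 and 256. Both differences were even across replicates, at 44.98% and 52.3% in replicates 1 and 2 and at 44.4% and 44.97% in replicate 3. Calhm6, a membrane channel gene induced by interferon in myeloid cells, had 36.2, 38.5 and 29.5 in WT and 2.39, 5.55 and 3.20 in Irf1-/- cells. Its Irf1-/- values were close to the level of 3 reads. Mndal, of the interferon-inducible p200 family, was at 26.2% of WT, and Uba7, which activates the ubiquitin-like protein ISG15, at 31.5%. Ticam2, a TLR adaptor gene, was at 40.3% and the noncoding transcript AW112010 at 18.7%. All 12 genes of this group also stayed at or below 50% against WT replicate 3 alone, with a median of 25.7%. This depends on the grouping, because the interferon-responsive gene Serpina3f, placed below with the protease inhibitors, was at 67.8% of that library. For Mndal, 37 exon bases are shared with the dropped gene Ifi203, and for Ticam2, 838 of its 5792 exon bases are shared with Tmed7 on the same strand, so that some of their reads cannot be assigned with certainty.

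Among the 5 genes of proteases and their inhibitors, 3 encode serpins. Serpinb9, which protects cells from granzyme B, had normalized counts of 416, 408 and 497 in WT and of 38.2, 33.3 and 60.7 in Irf1-/- cells, or 10.2% of WT. It was the only one of the 10 members with the lowest ratio that was also among the 10 with the highest WT mean. Serpine2, a secreted inhibitor of thrombin and related proteases, had 939.7, 1114 and 1481 in WT and 381, 394 and 315 in Irf1-/- cells. Its WT values ranged widely, and replicate 3 gave the lower ratio, 21.3% against 37.8% in replicates 1 and 2. Serpina3f, an antichymotrypsin-like inhibitor, had 429, 439 and 278 against 228, 190.0 and 146. Here WT replicate 3 was the lowest WT value, and the Irf1-/- mean was 67.8% of that library. St14, a membrane serine protease, and Pappa2, a protease of insulin-like growth factor binding proteins, were at 38.8% and 16.8% of WT.

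A further group of members acts in cell cycle, survival and cell death, and several of them are textbook targets of p53. Ccng1, the most abundant of all members, encodes cyclin G1 and had normalized counts of 3090.0, 3024 and 2649 in WT and of 1375, 1315 and 1205 in Irf1-/- cells. Per kilobase of exon it was also the highest member, with 832 normalized counts per kb in WT, ahead of AW112010 with 448 and Psrc1 with 215. Zmat3, an RNA-binding protein gene, had 1167, 1267 and 772 in WT and 568, 484 and 488 in Irf1-/- cells. Psrc1, which encodes a microtubule-associated protein, had 855, 829.5 and 486 against 326, 261 and 217. Ptprv, annotated as a processed transcript of a phosphatase gene, had 434, 472 and 336 against 191, 201 and 167. All 4 had their lowest WT value in replicate 3. The ratio of Ccng1 was 44.0% in replicates 1 and 2 and 45.5% in replicate 3. Against WT replicate 3 alone, the Irf1-/- means were 66.6% for Zmat3, 55.2% for Psrc1, 55.6% for Ptprv and 49.02% for Ccng1.

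Fas, a death receptor gene, had 273, 262 and 268 normalized counts in WT and 85.96, 97.1 and 114 in Irf1-/- cells. Bcl2l11, which encodes the pro-apoptotic BH3 protein BIM, had 278, 315 and 235 against 74.0, 84.6 and 55.6. At 37.2% and 26.1% of WT, both lay below 50% in the smaller and the larger libraries. Gm14005, a noncoding transcript named Morrbid in RefSeq and known as a regulator of Bcl2l11 in myeloid cells, lies 15.8 kb from Bcl2l11 and was at 41.8% of WT. Mxd1, a MAX partner that opposes MYC, had 421, 434 and 389 in WT and 144, 115 and 149.5 in Irf1-/- cells.

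**Figure D2:**
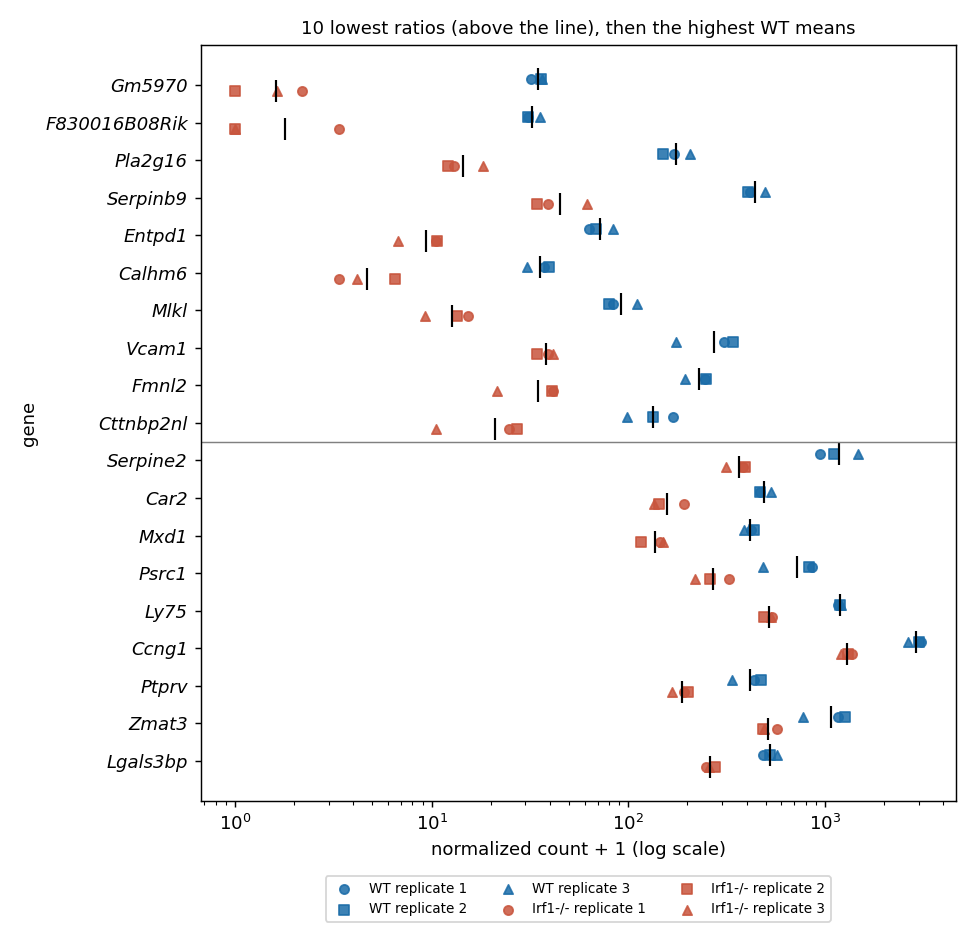
Normalized count plus 1 on a log scale for each library, for the 10 members with the lowest ratio (above the line) and the further members among the 10 highest WT means (below it), in order of the ratio. Blue points are WT, red points Irf1-/- libraries, shapes mark the replicate and black ticks the mean of 3. As the choice requires, no red point reaches a blue point of the same gene. The WT triangle (replicate 3) lies apart from the other blue points for Vcam1, Psrc1 and Zmat3.

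Adhesion molecules, receptors and other surface proteins made up 13 members, from 13.0% to 49.5% of WT. Entpd1, which encodes the ectonucleotidase CD39, had normalized counts of 62.4, 67.3 and 82.4 in WT and of 9.55, 9.71 and 5.75 in Irf1-/- cells. Vcam1, the endothelial ligand of the integrin that contains the α4 chain, had 307, 339 and 173 in WT and 38.2, 33.3 and 40.3 in Irf1-/- cells. WT replicate 3 held the lowest WT level of Vcam1, still above 4 times the highest Irf1-/- value, and the Irf1-/- mean was 21.9% of that library. Itga4, the gene of the α4 chain itself, had 363, 319 and 520.0 against 185, 115 and 284, and its values were highest in replicate 3 of both genotypes. Ly75, the endocytic receptor DEC-205, had 1163, 1189 and 1212 against 537, 487 and 532, which was among the most even differences. Cd80, a costimulatory ligand, was at 29.0%. Ulbp1, a stress-induced ligand of the receptor NKG2D, was at 30.4% of the WT mean and 49.7% of WT replicate 3. Eng, a TGF-β co-receptor gene, was at 39.3%, Tspan2 at 28.6% and Adgrg1 at 44.2%.

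Mpeg1, which encodes the pore-forming protein perforin-2 and is also used as a macrophage marker, had 89.9, 111 and 80.5 normalized counts in WT and 60.9, 56.9 and 19.8 in Irf1-/- cells. The summed level of the 10 myeloid markers examined, Mpeg1 included, ranged from 138 to 290 in WT and from 65.8 to 1100 in Irf1-/- libraries. Mpeg1, chosen for its lower Irf1-/- values, made up 80.5 of the lowest WT sum and 19.8 of the lowest Irf1-/- sum. Of the 10 markers, 7 were highest in Irf1-/- replicate 2. There Lyz2 reached 559 and Cd14 reached 334, while Mpeg1 was not raised. In bulk RNA fewer cells of a type and less RNA per cell cannot be told apart, and the part of myeloid cells, which the magnetic selection and any flow sort are meant to remove, in the values of Mpeg1 was not tested. Markers of several other cells were low: CD8 T cell markers summed to 32.4 to 41.2 in WT and 20.3 to 30.7 in Irf1-/- libraries, γδ T cell markers to 14.8 to 22.8 and 1.92 to 8.36, and B cell markers to 18.7 to 27.7 and 35.1 to 43.0. The NK markers Ncr1, Klrb1c, Klrb1b and Klra8 and the B cell gene Pax5 were at 0 in every library. The 10 NK cell markers summed to 37.4 to 57.8 in WT and 27.7 to 34.5 in Irf1-/- libraries, but most of the WT sum came from Eomes, which met the value criteria and was dropped by name. The other 9 summed to 3.74 to 6.76 in WT and 14.1 to 22.7 in Irf1-/- libraries, with Klra3 at 0, 0 and 0.615 against 8.36, 6.93 and 7.03. The 10 CD4 T cell markers, by contrast, summed to 19017 to 19104 in WT and 17819 to 18414 in Irf1-/- libraries. The 11 genes of cytotoxic effector cells had sums of 676 to 768 in WT and 518 to 1007 in Irf1-/- libraries, mostly from Nkg7, called lower at 52.3% of WT, and Gzmb, which was not called. Of 5 regulatory T cell markers, which summed to 12959 to 17116 and 14235 to 17086, mostly from Il2ra, Foxp3 was called higher at 185% and Ikzf2 lower at 53.9% of WT by limma. The part of such cells in the members' values was not tested.

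Transcription factors among the members were Klf2, Nfix, Mxd1 and Zfp385a, at 30.7%, 29.4%, 33.1% and 39.9% of WT. Klf2, which maintains expression of homing receptors in resting T cells, had 66.1, 70.9 and 24.6 normalized counts in WT and 20.3, 20.8 and 6.39 in Irf1-/- cells. Both genotypes were lower in replicate 3, so the ratio was 30.99% in the smaller and 28.9% in the larger libraries, although the Irf1-/- mean came to 65.8% of WT replicate 3.

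Enzymes of lipid and other metabolism made up 10 members. Pla2g16, a phospholipase gene that RefSeq names Plaat3, had normalized counts of 169.7, 149 and 206 in WT and of 11.9, 11.1 and 17.3 in Irf1-/- cells. At 8.20% of WT it was the lowest of the members whose reads were not near 0. Car2, a carbonic anhydrase gene, had 467, 465 and 534 against 192, 143 and 135. Pla2g4f, a cytosolic phospholipase gene, was at 41.6%, and its level in WT replicate 3 was 146 against 287 and 316 in the other WT libraries, so that the Irf1-/- mean was 71.1% of WT replicate 3. Sulf2, an extracellular sulfatase that trims heparan sulfate, had 109.8, 103 and 54.1 in WT and 17.9, 13.9 and 15.3 in Irf1-/- cells, or 18.5% of the WT mean and 30.3% of WT replicate 3. Cyp1a1, a target of the aryl hydrocarbon receptor, was at 28.3% of the WT mean but at 63.3% of WT replicate 3, and Neu3, a sialidase of gangliosides, was at 48.9%. Sulf2 shares 154 exon bases with Ncoa3, a gene with a WT mean of 2919 that is transcribed from the other strand. As the strand setting of the counting was not stated, part of its reads may belong to the neighbouring gene.

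The largest group, with 14 members from 15.1% to 49.98% of WT, acts on the cytoskeleton or in signal transduction. Fmnl2, a formin that elongates actin filaments, had normalized counts of 246, 248 and 194 in WT and of 40.6, 40.2 and 20.5 in Irf1-/- cells. Cttnbp2nl, a cortactin-binding protein gene, had 168, 132 and 97.7 against 23.9, 26.3 and 9.59. Both were lowest in replicate 3 of each genotype, with ratios of 11.0% and 10.7% there. Vav3, a guanine nucleotide exchange factor, was at 41.5%, Rgs12, a regulator of G protein signalling, at 48.0% (73.6% of WT replicate 3), Gng12, a G protein γ subunit, at 49.98%, and Nuak2, an AMPK-related kinase, at 24.4%. Asap3 was at 21.9%, Synpo at 26.7%, Sntb1 at 29.3%, Carmil1 at 39.8%, Lrrk1 at 42.9%, Arl4d at 43.6%, Crmp1 at 47.9% and Dzip1 at 48.1%.

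A group of 4 secreted ligands and related proteins was formed apart from the secreted inhibitors and enzymes above. Ccl1, a chemokine ligand of CCR8, was at 43.6% of WT, but its WT values of 41.2, 69.7 and 23.97 were widely spread and the lowest was close to the highest Irf1-/- value of 20.8. Wnt3 was at 34.6% of the WT mean but at 67.6% of WT replicate 3. Glipr1 was at 31.2% and Insl6, a relaxin family gene, at 18.97%. Glipr1 shares 352 of its 1543 exon bases with Krr1, a gene with a WT mean of 867. The remaining members were the noncoding transcripts and pseudogenes Gm4759, Gm12735, Gm17641, 9230114K14Rik and 2610507I01Rik, from 38.4% to 47.7%, with Tmem229b at 35.0%, Vwa5a at 39.2%, Cox6b2 at 37.7%, Lyrm7 at 32.0%, Endod1 at 47.4%, Dglucy at 46.1%, Cadm1 at 26.5% and Lrp4 at 42.4%. Against WT replicate 3, Gm17641 was at 74.1%, Dglucy at 71.04%, Cadm1 at 68.2% and Lrp4 at 74.1%. Of these Gm17641 shares 681 of its 2350 exon bases with 1110032F04Rik on the other strand.

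The members varied more between replicates than most genes did. They were chosen by these same values, and what the choice itself does to their spread was not tested. Their median coefficient of variation was 17.9% in WT and 21.1% in Irf1-/- cells, whereas it was 6.56% and 7.01% over all genes with a WT mean of at least 30. The members' levels were lower, with a median WT mean of 97.2 as against 375, and low counts vary more. Levels were therefore matched in ranges chosen after seeing the data. At a WT mean from 30 to 100 the median in WT was 21.8% for 40 members and 14.1% for all genes, from 100 to 300 it was 12.5% for 22 members and 8.16%, and from 300 to 3000 it was 17.1% for 15 members and 5.09%. At an Irf1-/- mean in the same ranges, the median in Irf1-/- cells was 19.3% for 23 members and 13.9% for all genes, 16.5% for 13 and 8.52%, and 7.96% for 4 and 5.62%. WT replicate 3 gave the lowest WT value for 49 of 77 members, or 63.6%, as against 33.0% of all these genes. In 7 members, or 9.09%, it was at most 50% of the mean of WT replicates 1 and 2, as against 0.541% of all. These were Cadm1, Cyp1a1, Klf2, Wnt3, Pla2g4f, Lrp4 and Ccl1. Cadm1, an adhesion molecule gene, had 66.1, 70.9 and 19.7 normalized counts in WT and 15.5, 9.71 and 14.1 in Irf1-/- cells, so that WT replicate 3 was nearer to the Irf1-/- libraries than to the other WT libraries.

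When the replicates were taken apart, 74 members had a ratio of at most 50% in replicates 1 and 2, and 58 in replicate 3. The median ratio was 34.9% in the former and 38.6% in the latter, and all 77 were below 100% in both, as the choice requires. In replicate 3 the ratio was 91.0% for Lrp4, 82.8% for Crmp1, 79.4% for Dzip1, 76.9% for 2610507I01Rik, 72.9% for Cadm1, 71.2% for Gm17641 and 68.0% for Ccl1. Mpeg1 showed the opposite order, with 59.1% in replicates 1 and 2 and 25.5% in replicate 3. Against WT replicate 3 alone, the WT library without Y-linked transcripts, 52 of 77 members had an Irf1-/- mean at or below 50%, with a median of 42.3%, and against WT replicates 1 and 2 the median was 34.4%. The 25 members above 50% reached up to 80.2% for Ccl1 and included Zmat3, Psrc1, Ptprv, Rgs12, Crmp1, Dglucy and Klf2. The part of depth, of Y-linked transcripts or of any other property of these libraries was not tested.

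**Figure D3:**
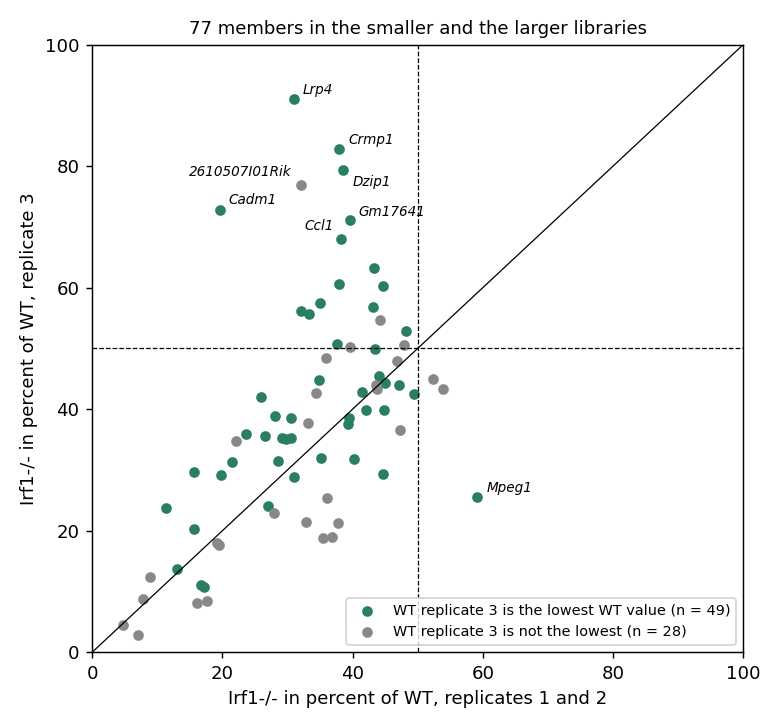
Irf1-/- in percent of WT for each of the 77 members in the larger libraries (replicate 3, vertical) against the smaller ones (mean of replicates 1 and 2, horizontal). Green points are the 49 members with their lowest WT value in replicate 3, grey points the other 28, the solid line marks equal percentages and dashed lines mark 50%. In 55 members both are at most 50%, and the points farthest above the line, from Lrp4 at 91.0% downwards, are mostly green.

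The members were spread over the genome. Chromosome 2 held 10, chromosomes 3 and 11 held 8 each, chromosomes 1 and 19 held 7 each, and chromosome 17 none. The 7 on chromosome 19, among them Pla2g16, Entpd1 and Fas, made 9.09% of the members, while 3.58% of all genes tested lie there. Lyrm7 was the member closest to the targeted locus, 1.05 Mb from Irf1, followed by 2610507I01Rik at 5.42 Mb. Within 500 kb of a dropped gene that met the same criteria lay 6 members, or 7.79%, as against 3.23% of the other genes tested. Besides Gm5970 and F830016B08Rik these were Mndal, whose span overlaps Ifi211, Synpo at 201 kb from the GTPase gene Iigp1, Gm17641 at 169 kb from Il12a and Gsdmd at 364 kb from Parp10. These shares are descriptions, with no test.

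Promoter windows were then searched on both strands for 3 patterns. A core of the interferon-stimulated response element, AANNGAAA, was found in 16 of 51 members with a window, or 31.4% (Wilson 95% interval 20.3 to 45.03), as against 20.7% of all genes tested and 26.7% of all 27025 genes with a window. The repeat GAAANNGAA, which can overlap the first pattern, was found in 6 of 51, or 11.8% (5.51 to 23.4), as against 8.38% and 9.76%. The STAT element TTCNNNGAA was found in 4 of 51, or 7.84% (3.09 to 18.5), as against 8.35% and 9.55%. All 3 intervals for the members include the share of all genes with a window. In the 31 genes of the dropped families with a window, the shares were 74.2% for AANNGAAA, 61.3% for GAAANNGAA and 25.8% for TTCNNNGAA, although relatives within a family share sequence and are not independent. Among the 25 members with the lowest ratio, 8 of 16 with a window held AANNGAAA and 4 held GAAANNGAA, and among the other 52 members 8 and 2 of 35 did. Serpinb9, Calhm6, Mndal and Cyp1a1, whose sequences are given above, are the 4 in the first set. Entpd1, Sulf2, Bcl2l11, Cd80, Nfix, Fas and Uba7 are among the members with AANNGAAA but not the repeat, whereas Pla2g16, Mlkl, Fmnl2 and Cttnbp2nl had no match to either IRF pattern in this window.

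**Figure D4:**
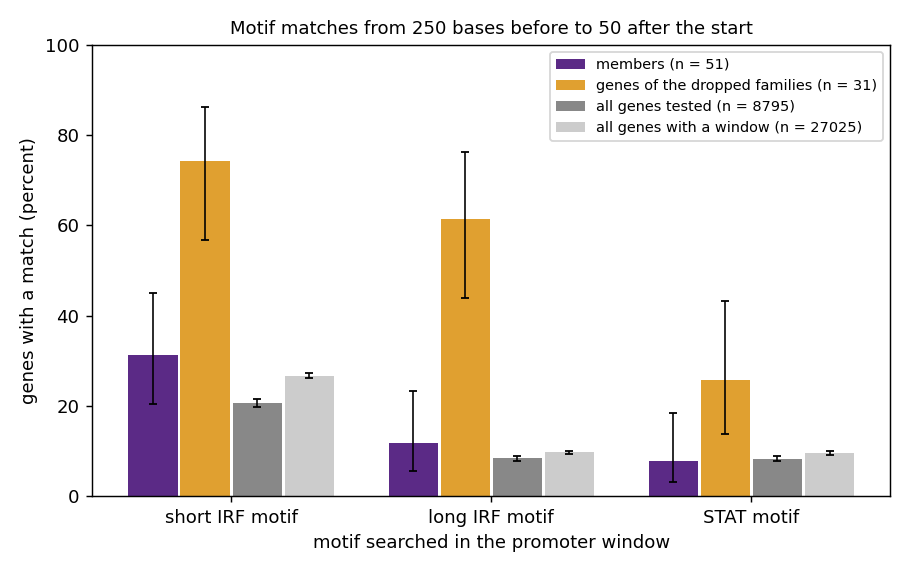
Share of genes in percent whose promoter window (250 bases before to 50 after the start) holds each motif, for the members, the dropped genes that met the same criteria, all genes tested and all genes with a window. The short IRF motif is the response element core, the long one the repeat, and the STAT motif the element TTCNNNGAA; bars show Wilson 95% intervals. For the short motif the members stand at 31.4%, between the 26.7% of all genes and the 74.2% of the dropped genes, whose interval does not overlap that of the members.

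The upstream pathway was read from a list of 17 genes of IFN-γ signalling, none of them a member. Of 16 tested, 4 were lower and 2 higher in Irf1-/- cells, with a median log2 fold change of 0.04 as against -0.00373 over all genes. The lower genes included Irf2, at 50.8% of WT (log2 fold change -0.99, limma, adjusted p = 0.000315), and Irf8, at 78.7%, and the higher genes were Socs3, a feedback inhibitor of cytokine receptors, at 244% and Irf7 at 215% of WT. A second list held 80 interferon-responsive genes outside the dropped names, and 6 of them, Mlkl, Gsdmd, Zbp1, Sp140, Serpina3f and Lgals3bp, are members. Of its 57 tested genes that are not members, 19 were lower, 6 higher and 32 not called, where 12.4% of all genes were lower and 11.4% higher. Those lower included Cd274, the gene of PD-L1, at 65.4% and Nmi at 56.1% of WT.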

How the data were processed

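RNA-Seq libraries of poly(A) RNA from 3 WT and 3 Irf1-/- Th9 cultures were compared. Per the labels, the authors used STAR 2.4.0b on GRCm38, featureCounts on Ensembl genes and DESeq2 1.12.3. The deposited signal holds gene counts after division by a library size factor. All non-zero values (100%) came out as whole reads, to within 0.01 of a read, once the division was undone. The strand setting of the counting is not given in the sources used here, which leaves overlapping genes and close paralogs uncertain.

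The members, the gene lists and the role groups were chosen with earlier results of these data known. The rule took genes with a WT mean of at least 30, a ratio of at most 0.5 (1 added to both means) and no overlap, less the dropped chromosomes, name prefixes and symbols. Genes averaging at least 10 were fitted with limma 3.58.1 in R 4.3.3 (eBayes with trend, log2 of the normalized count plus 1), with Benjamini-Hochberg adjustment over 11379 genes. Fold changes are on this scale and understate changes of low genes. Alternatives were other pseudocounts, filters and normalizations, edgeR 4.0.16, DESeq2 1.42.0 on the recovered reads, a replicate block and subsets of libraries. The scripts were tested on simulated data.

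Values in every library are given for the 10 members with the lowest ratio, the 10 with the highest WT mean, the members in a list and further members picked to illustrate a role. Symbols came from the Ensembl identifiers, promoter windows from RefSeq tables of GRCm38.p6, in which 75 of 77 members matched a gene and 51 had a window. Every pair of replicates differed by more than sampling noise: the chi-square per gene was 1.28 for WT replicates 1 and 2, 1.83 for Irf1-/- replicates 1 and 2 and between 5.86 and 7.47 for pairs with replicate 3. Intervals cover counting error only. A few genes are counted in the totals but not reported here by name.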

Additional observations from a re-analysis of the deposited data

How the results depend on the processing

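No log2 fold change of a member, of their median or of Irf1 changed sign under any alternative. For the members and their median the choice fixes this almost entirely, since it allowed no overlap of values. Of the members' log2 fold changes, 1309 of 1428 moved by less than the spread between replicates, and 119 moved by more. The number of members was 46 with a ratio limit of 0.4, 149 with 0.6, and between 68 and 108 with a library left out, the latter without WT replicate 3, where 73 were shared. The members' median log2 fold change of -1.44 was -1.60 after quantile normalization, -1.19 with a pseudocount of 10, between -1.56 and -1.42 with a library left out, and -1.25 in the libraries without Y-linked transcripts. These are WT replicate 3 and the 3 Irf1-/- libraries, and the lone WT library is assumed to vary like the others. Here 403 genes were called lower and 407 higher, 1 IFN-γ signalling gene was lower and 2 were higher, and 11 interferon-responsive genes were lower and 3 higher. More genes were called lower than higher as reported (1406 and 1293), but not with TMM factors (1294 and 1349) or quantile normalization (1216 and 1256). With a library left out, 824 to 1471 genes were called lower and 805 to 1380 higher, IFN-γ signalling genes called higher were 1 or 2, and interferon-responsive genes called higher were 3 to 6. The low counts came without WT replicate 1 (824 and 814), WT replicate 2 (824 and 805) and Irf1-/- replicate 2 (895 and 810). IFN-γ signalling genes called higher numbered 1 after quantile normalization, without a filter, with a mean of at least 50 and in DESeq2, and the 4 smaller libraries gave 12 interferon-responsive genes called higher. Replicate numbers were not taken as pairs, since same-numbered samples correlated at 0.0922, 0.269 and 0.321, although every sample correlated best with its own number. With a replicate block 2116 genes were called lower and 12 interferon-responsive genes higher. The repeat GAAANNGAA in place of AANNGAAA was found in 11.8% of the members' promoters. The causes were not tested. At 3 reads, members with Irf1-/- values near 0 are limited by depth.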

Other observations

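Several members are textbook targets of p53, and a list of 35 such genes was written after the values were seen. It holds 7 members, among them Ccng1, Fas, Zmat3 and Psrc1, which are no independent evidence. Of the 27 tested genes that are not members, 15 were lower in Irf1-/- cells, 1 was higher and 11 were not called by limma, where 12.4% of all genes were lower and 11.4% higher. Cdkn1a, the cell cycle inhibitor p21, was at 56.4% of WT with normalized counts of 1056, 1170 and 855 in WT and of 617, 614 and 505 in Irf1-/- cells. Apaf1, the scaffold of the apoptosome, was at 53.6%, Trp53inp1 at 65.5% and Mdm2, the ubiquitin ligase of p53, at 76.99%, while Sesn2 was at 122%. Without WT replicate 1 or without WT replicate 2, 8 of the 27 were lower, and in WT replicate 3 against the 3 Irf1-/- libraries, where the lone WT library is assumed to vary like the others and calls over all genes fell from 1406 to 403 lower, 3 of 26 were. The median log2 fold change of the genes that are not members was -0.41 over all libraries and -0.24 in these 4.

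A list of 12 genes for lymphocyte homing and adhesion, also written after the values were seen, holds 3 members, among them Klf2 and Itga4. Il7r, at 42.0% of WT, met the value criteria of the members and was dropped by name, so its call was fixed by them. Of the 8 remaining genes 6 were lower, 1 was higher and 1 was not called by limma, where 12.4% of all genes were lower and 11.4% higher. Itgb1, the β chain that pairs with the product of Itga4, had normalized counts of 1782, 1648 and 1736 in WT and of 918, 904 and 1074 in Irf1-/- cells, or 56.1% of WT. Cd44 was at 62.9% of WT, whereas S1pr1, the receptor that lets T cells leave lymph nodes and a known target of KLF2, was at 198% with values of 86.1, 119 and 86.7 against 172, 176 and 233.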
